A study of Macaca fascicularis and Mus musculus with 492 samples.

Results

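Transcripts of 7 genes of the bone morphogenetic protein (BMP) pathway were followed by lineage, day and culture: the ligands BMP2, BMP4 and BMP6, the target genes ID1, ID2 and ID3, and BAMBI. The members were chosen by gene name, and all 7 were found among 28797 named genes of the cynomolgus monkey (Macaca fascicularis) table and 26219 genes of the mouse table. Expression was measured in 492 single cells by sequencing of transcript 3′ ends (SC3-seq). The 421 monkey cells were 390 embryo cells of embryonic days E06 (43 cells), E07 (35), E08 (95), E09 (20), E13 (46), E14 (62), E16 (36) and E17 (53), and 31 embryonic stem cells (ESC). The ESC came from line CMK6 without feeders (9 cells), CMK6 on mouse feeder cells (14) and line CMK9 on mouse feeder cells (8). Cultures on feeders received bFGF and LIF. Mouse cells of C57BL/6 embryos were from E5.5 (25 cells) and E6.5 (24), with 10 ESC of line BVSC R8 grown without feeders in 2i+LIF medium. That line, named for its Blimp1-mVenus and stella-ECFP reporters, also gave 12 epiblast-like cells (EpiLC) after 2 days with activin A, bFGF and KSR. Each line is a single line, and each mouse condition 1 culture. Per the labels, the post-implantation monkey fragments held epiblast, amnion, hypoblast and yolk sac endoderm. Extraembryonic ectoderm, a source of Bmp4 in mouse embryos, had been removed from the mouse samples, and at E6.5 only the proximal part of the epiblast but the whole visceral endoderm was taken.

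BMP ligands bind receptor kinases that phosphorylate SMAD1, SMAD5 and SMAD9, which enter the nucleus with SMAD4 and switch on target genes. The ID genes, inhibitors of DNA binding, are among the best known direct targets and encode helix-loop-helix proteins that lack a basic DNA-binding region, and BAMBI encodes a decoy receptor without a kinase domain. In the early mouse embryo, Bmp4 from extraembryonic ectoderm and Bmp2 from visceral endoderm act on the epiblast, where the pathway takes part in mesoderm and germ cell specification. ID transcripts can also respond to other signals, so their levels are read here as transcript levels only.

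The ID genes are similar in sequence, which bears on how reads can be told apart, and the stretch shared by the family is shown for that reason. The sequences are 90 coding bases of the mouse genes in the helix-loop-helix region, from the GENCODE M21 annotation of GRCm38, written 5′ to 3′ on the coding strand. Capitals mark the 56 of 90 bases (62.2%) that are identical in all 3 genes.
Id1, coding bases 178 to 267: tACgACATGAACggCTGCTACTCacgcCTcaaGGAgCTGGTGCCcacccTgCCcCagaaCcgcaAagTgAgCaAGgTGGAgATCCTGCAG
Id2, coding bases 109 to 198: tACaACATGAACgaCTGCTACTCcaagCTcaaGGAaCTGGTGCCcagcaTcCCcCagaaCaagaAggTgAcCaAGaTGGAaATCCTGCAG
Id3, coding bases 124 to 213: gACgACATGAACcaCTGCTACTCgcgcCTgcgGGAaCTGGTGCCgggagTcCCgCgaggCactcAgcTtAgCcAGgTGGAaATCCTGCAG
Id1 and Id2 share 73 of these 90 bases (81.1%), Id1 and Id3 share 62 (68.9%), and Id2 and Id3 share 63 (70%). The similarity did not extend to the transcript ends that the assay reads: of 271 stretches of 30 bases in the last 300 bases of Id1, Id2 and Id3, 0 occurred in a transcript of another gene. Bmp2 and Bmp6 gave the same count of 0, whereas 16 of 267 stretches near the end of Bmp4 were shared with other genes, so that reads there could be assigned to other genes. In GRCm38, Id1 lies on chromosome 2 (152736251 to 152737410, plus strand), Id2 on chromosome 12 (25093799 to 25097140, minus strand) and Id3 on chromosome 4 (136143497 to 136145755, plus strand). Bmp2 lies on chromosome 2 (133552159 to 133562885, plus strand), Bmp4 on chromosome 14 (46383520 to 46390669, minus strand) and Bmp6 on chromosome 13 (38345107 to 38500302, plus strand). Monkey coordinates were not used here.

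Levels are given in RPM, reads scaled to the library's total, or as log2(RPM + 1), without scaling to length because only transcript ends were counted. The unit of comparison was the mean log2(RPM + 1) of a cell class on a day, or of a culture, since the labels tie no cell to an embryo. The p-values therefore measure the spread between days and cultures, and not that between animals. Depth was 166753 to 4491536 reads per monkey cell (median 1879413) and 1004230 to 4159059 per mouse cell (median 2643041), and E17 was the shallowest day (median 912251). Classes were named from marker genes after clustering without the 65 genes of the BMP pathway list. They comprised 143 epiblast-like, 54 hypoblast or endoderm-like (E07 to E09 only), 84 trophectoderm-like, 33 extraembryonic mesenchyme-like and 44 gastrulating-like monkey cells, while 32 cells, 31 of them at E06, were left unnamed. CER1, HEY1 and HAND1 belong both to the pathway list and to the marker lists, and their levels took part in the naming. The gastrulating-like class came mainly from 1 cluster at E13 and E14 and from another at E16 and E17. Its summed epiblast marker level was 3049 and 3156 RPM on the earlier 2 days and 1291 and 1496 RPM on the later 2. The share of all genes called in each comparison, given below as background, includes genes that the clustering used.

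BMP2 transcripts were found at high level in 3 classes of monkey cells. In hypoblast or endoderm-like cells the median was 380 RPM at E07 (0 to 1198, 10 cells), 538 RPM at E08 (0 to 2277, 37 cells) and 556 RPM at E09 (127 to 1197, 7 cells). Extraembryonic mesenchyme-like cells had a median of 84.3 RPM at E13 (13.2 to 579, 16 cells) and 298 RPM at E14 (0 to 951, 14 cells). In gastrulating-like cells the median was 0 RPM at E13 (highest cell 150, 6 cells), 0.49 RPM at E14 (highest 70.2, 12 cells), 42.4 RPM at E16 (1.84 to 848, 10 cells) and 35.9 RPM at E17 (0 to 497, 16 cells). Cells at 10 RPM or above, a level of more than 1 read in every cell, made up 50 of 54 hypoblast or endoderm-like cells, 28 of 33 mesenchyme-like cells and 23 of 44 gastrulating-like cells, against 5 of 143 epiblast-like and 1 of 84 trophectoderm-like cells.

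By mean log2(RPM + 1), BMP2 was ordered from hypoblast or endoderm-like cells at E09 (8.93 ± 1.24, SD over cells) through E08 (8.41 ± 2.43) and E07 (6.80 ± 3.76) to mesenchyme-like cells at E13 (6.62 ± 1.78), gastrulating-like cells at E16 (5.96 ± 2.32), mesenchyme-like cells at E14 (5.84 ± 4.09) and gastrulating-like cells at E17 (4.35 ± 3.12). Each of these neighbours differed by less than the SD of either. All other units had means of at most 1.62. The wide SD of the mesenchyme-like cells at E14 came from a split: 9 of 14 cells were at 30 RPM or above, and the remaining 5 were under 10 RPM.

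BMP6 was found in 1 class. Its median was 95.6 RPM in hypoblast or endoderm-like cells at E07 (35.1 to 145), 146 RPM at E08 (0 to 416) and 78 RPM at E09 (4.84 to 269). The median was under 1 RPM in every other class and day and in the 3 ESC cultures, where single cells reached at most 38.5 RPM. Of 60 monkey cells at 10 RPM or above, 51 were hypoblast or endoderm-like. The means of 6.61 ± 0.61, 6.92 ± 1.90 and 6.23 ± 1.82 on the 3 days differed by less than the SD at E08. BMP2 and BMP6 were found in the same cells: both were at 10 RPM or above in 8 of 10 hypoblast or endoderm-like cells at E07, 33 of 37 at E08 and 6 of 7 at E09.

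**Figure D1:**
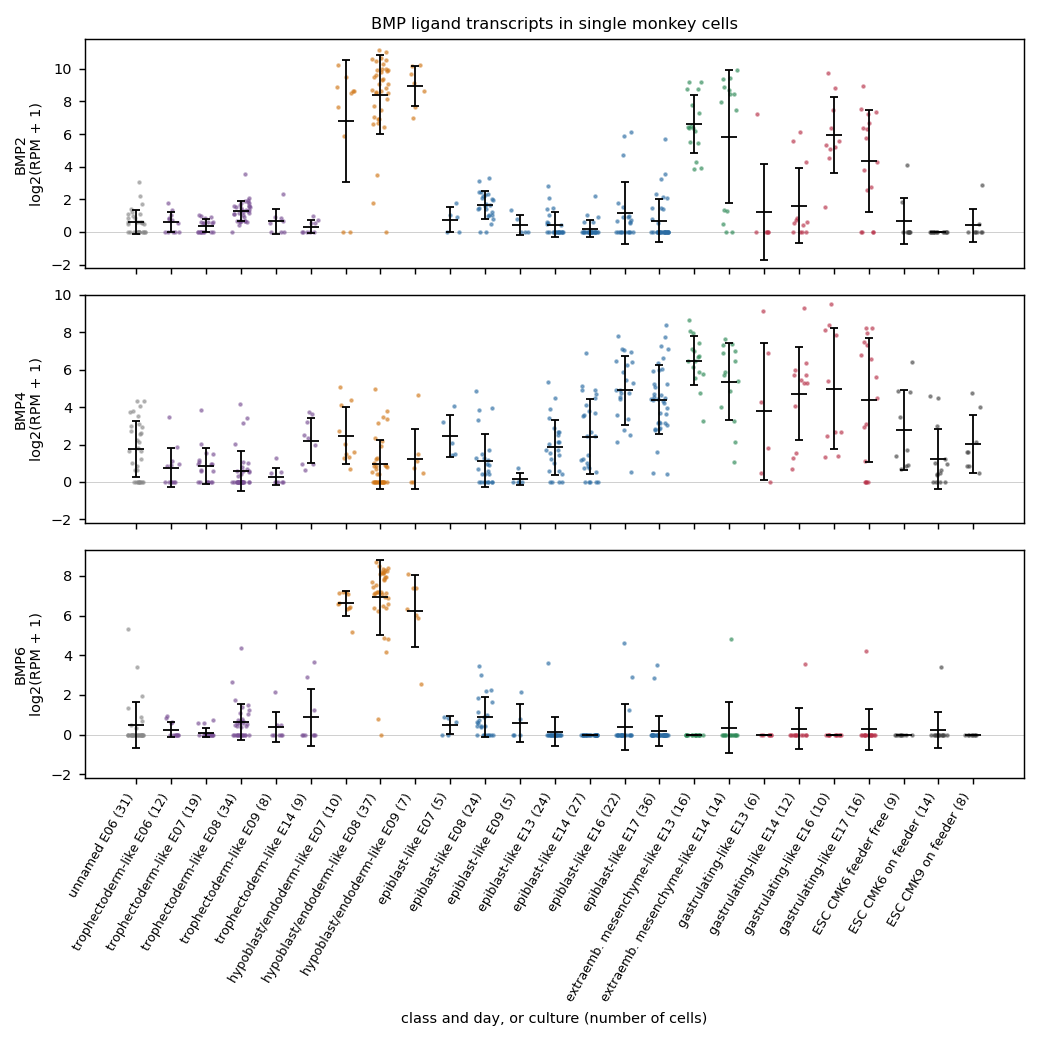
Log2(RPM + 1) of BMP2, BMP4 and BMP6 in each monkey cell (points), by class and day or culture, with the mean and SD over cells (black). BMP2 is high in hypoblast or endoderm-like, mesenchyme-like and late gastrulating-like cells, BMP6 in hypoblast or endoderm-like cells, and BMP4 in mesenchyme-like, gastrulating-like and E16 and E17 epiblast-like cells.

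Against epiblast-like cells of E07 to E09, hypoblast or endoderm-like cells of the same days had more BMP2, BMP6, ID2 and BAMBI transcripts. The difference in mean log2(RPM + 1) was 7.12 ± 0.81 for BMP2 (SE, 3 days against 3; limma, adjusted p = 7.84e-07) and 5.94 ± 0.29 for BMP6 (adjusted p = 8.64e-13). ID2 differed by 4.61 ± 0.83 (adjusted p = 0.000239) and BAMBI by 2.77 ± 0.69 (adjusted p = 0.0052). The day means of all 4 genes did not overlap between the classes. How many of all tested genes were separated in this way, with 3 days against 3, was not counted. BMP6 passed the filter on low values only through the 3 hypoblast or endoderm-like units and so had to differ. Of the other 6 members, 3 passed upward and 0 downward, against 9.34% of all 11751 tested genes passing upward and 20.2% in either direction. ID3 was higher by 1.82 ± 0.77 (adjusted p = 0.103), and its adjusted p was 0.0194 with the day as a block and 0.0441 with only the 2 classes in the fit, over a range of 0.0194 to 0.911 across alternatives. ID1 (-0.38 ± 0.63, 95% interval -1.69 to 0.93) and BMP4 (0.30 ± 0.69, -1.13 to 1.72) were not shown to differ. With only units of at least 10 cells the ID2 difference was 3.16 and its adjusted p 0.199.

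The ID2 level was high in almost every hypoblast or endoderm-like cell. The median was 77.8 RPM at E07 (26.3 to 459), 116 RPM at E08 (0 to 782) and 67.3 RPM at E09 (24.8 to 1083), while epiblast-like cells had medians of 0 RPM (highest 44.4), 11.5 RPM (highest 106) and 0.70 RPM (highest 14) on those days. ID1 in the same hypoblast or endoderm-like cells was low, at medians of 0, 3.03 and 5.68 RPM, and overlapped the epiblast-like medians of 2.70, 2.78 and 4.62 RPM. Within cells that carry the same code in their sample titles (MS03 at E07 and E09, MS02 at E08), the differences were 5.35, 6.90 and 8.51 for BMP2 and 6.27, 3.58 and 5.61 for ID2. The labels do not say what the codes mean, and MS03 at E07 rests on 3 epiblast-like cells.

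Of 34 tested pathway genes beside the members (58 listed, 55 in the table), 6 were higher and 6 lower in hypoblast or endoderm-like cells. GDF6, another BMP family ligand, was higher by 3.79 ± 0.47 (adjusted p = 2.44e-06), with day means of 2.41 to 4.76 against 0 to 0.26. The transcription factor genes TBX3 (4.52 ± 0.56), ZNF503 (3.74 ± 0.48) and MSX2 (2.14 ± 0.70) were higher as well, though the call of MSX2 was lost in 10 of 18 alternatives. Of 6 tested genes that restrain SMAD signalling inside the cell, 2 passed, both downward, and the median difference over the 6 was 0.0052 beside -0.12 over all tested genes. SMAD7, an inhibitory SMAD, fell by 3.08 on the log2 scale and PMEPA1, a membrane protein that binds SMADs, fell by 4.04. ID4, another gene of the ID family, had a difference of -2.95 ± 0.80 (adjusted p = 0.00988), opposite in sign to ID2.

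BMP4 was not a transcript of 1 lineage. Its highest levels were in mesenchyme-like cells, with medians of 94.5 RPM at E13 (8.60 to 399) and 54.8 RPM at E14 (1.12 to 201). Gastrulating-like cells ranged widely, with medians of 10.6 RPM at E13, 40.7 RPM at E14, 23.4 RPM at E16 and 34.4 RPM at E17, and single cells between 0 and 731 RPM. In epiblast-like cells the median was 3.24, 0.56 and 0 RPM at E07, E08 and E09, and on the later days 2.29 RPM at E13, 4.41 RPM at E14, 28.9 RPM at E16 and 20.2 RPM at E17. The share of epiblast-like cells at 10 RPM or above was 12.5% at E08 and at E13, 40.7% at E14, 77.3% at E16 (exact 95% interval 54.6 to 92.2) and 66.7% at E17 (49 to 81.4). At 30 RPM or above it was 7.41% at E14, 45.5% at E16 and 33.3% at E17. These intervals cover counting error only. Hypoblast or endoderm-like and trophectoderm-like cells were low, with 6 of 54 and 5 of 84 cells at 10 RPM or above.

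Epiblast-like cells of E13 to E17 had more BMP4, ID1, ID3 and BAMBI transcripts than those of E07 to E09. The differences in mean log2(RPM + 1) were 3.27 ± 0.72 for ID3 (4 days against 3; limma, adjusted p = 0.00143), 2.40 ± 0.64 for BAMBI (adjusted p = 0.0063), 2.14 ± 0.64 for BMP4 (adjusted p = 0.0136) and 1.92 ± 0.59 for ID1 (adjusted p = 0.0161). These 4 of 7 members passed upward and 0 downward, against 12.3% of all tested genes upward, 20.4% downward and 32.7% in either direction. ID2 was higher by 1.94 ± 0.78 (adjusted p = 0.0572), and it passed in 7 of 18 alternatives. BMP2 (-0.31 ± 0.76) and BMP6 (-0.47 ± 0.27) did not pass. No title code had at least 3 epiblast-like cells in both periods. The codes with that many were MS02 and MS03 early, and MS08, MS09, MS10, MS11 and MS61 late. Period and code can therefore not be told apart here. The day means did not overlap for ID1 (2.07 to 2.45 early, 3.19 to 5.52 late), ID3 or BAMBI, and overlapped for BMP4, which was 2.46 at E07 and 1.85 at E13. Those of BMP6, which did not pass, did not overlap either. The share of all tested genes without overlap was not counted.

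The late days were not alike. ID1 had a median of 7.95 RPM at E13, 12.1 RPM at E14, 41.4 RPM at E16 (7.03 to 197, 22 cells) and 15.8 RPM at E17. ID3 was likewise highest at E16, with medians of 61.2, 48.3, 611 (1.99 to 2116) and 144 RPM in order of days, and so was ID2, with medians of 2.84, 9.78, 129 (0 to 772) and 22.4 RPM. Cells of all 4 days overlapped for each of the 3 genes. At E16, 21 of 22 epiblast-like cells were at 10 RPM or above for ID1 and 20 for both ID1 and ID3. The E16 epiblast-like cells also had the highest summed marker levels of other tissues among the late epiblast-like days: 189 RPM for 6 amnion markers against 42.1 to 73.6 RPM, 1116 RPM for 9 mesenchyme markers against 152 to 280 RPM, and 93.7 RPM for 3 trophoblast hormone genes against 0.92 to 6.43 RPM. Their part in the ID levels was not tested. Without E16 the differences were 1.63 for BMP4 (adjusted p = 0.0579) and 1.45 for ID1 (adjusted p = 0.0665), and the BMP4 call was also lost without E09 (1.59, adjusted p = 0.103) and without E17 (1.81, adjusted p = 0.0508). The ID1 call was lost without E08 (1.84, adjusted p = 0.0514) and in edgeR (2.03, adjusted p = 0.0906), and over all alternatives the adjusted p of ID1 ranged from 0.0029 to 0.195 and that of BMP4 from 0.00123 to 0.158. With units of at least 10 cells the ID3 difference was 2.41 (adjusted p = 0.179), and in edgeR the BAMBI difference was 1.33 (adjusted p = 0.0828).

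Within the E16 epiblast-like cells the 3 ID genes varied together. Spearman's rho across the 22 cells was 0.89 for ID2 with ID3, 0.74 for ID1 with ID2 and 0.73 for ID1 with ID3, and 0.83 for ID2 with MSX2, a homeobox gene that is also a BMP target. TFAP2A, 1 of the amnion markers, had a rho of 0.60 with ID1, 0.61 with ID2 and 0.48 with ID3 in these cells, and its part in the ID levels was not tested. BMP4 in the same cells had a rho of 0.57 with ID1. The number of reads per cell had a rho between -0.18 and -0.09 with the 3 ID genes there. Cells of a day share their embryos and their processing, so these values are descriptions.

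**Figure D2:**
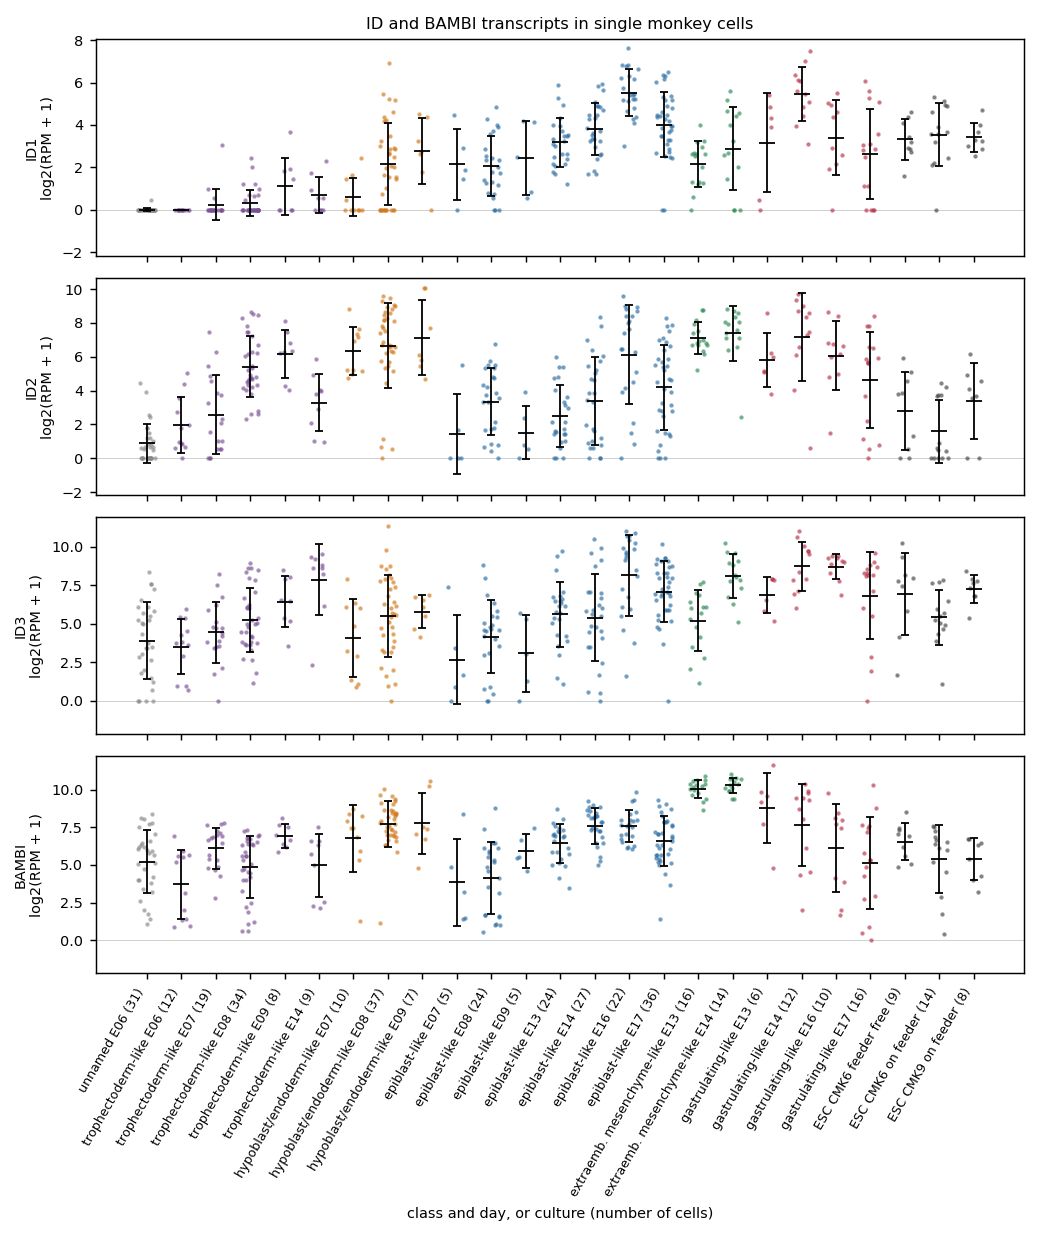
Log2(RPM + 1) of ID1, ID2, ID3 and BAMBI in each monkey cell (points), by class and day or culture, with the mean and SD over cells (black). ID1 is near 0 in trophectoderm-like cells and highest in E16 epiblast-like and E14 gastrulating-like cells. ID2 is high in hypoblast or endoderm-like, mesenchyme-like and E08 and E09 trophectoderm-like cells. It is also high in gastrulating-like cells of E13, E14 and E16 and in E16 epiblast-like cells.

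Other pathway genes of the epiblast-like cells moved in both directions between the early and late days, with 5 of 34 higher and 5 lower. FST, which encodes the secreted activin and BMP binding protein follistatin, was higher late by 5.39 ± 0.71 (adjusted p = 4.22e-06), from day means of 0.48 to 0.72 to means of 4.82 to 7.12. RGMA, a BMP co-receptor, was higher by 3.67 ± 0.39. SMAD7 differed by -2.43 ± 0.52, TBX3 by -2.11 ± 0.52 and HEY1 by -2.01 ± 0.34. The median difference was 1.94 over the 7 members and 0.10 over the 34 other pathway genes, beside -0.22 over all tested genes.

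Extraembryonic mesenchyme-like cells at E13 and E14 had both BMP2 and BMP4, together with high ID2 and BAMBI. Against late epiblast-like cells (2 days against 4), BMP2 was higher by 5.61 ± 0.86 (limma, adjusted p = 2.78e-05), BAMBI by 3.14 ± 0.73 (adjusted p = 0.00237), ID2 by 3.21 ± 0.88 (adjusted p = 0.00839) and BMP4 by 2.54 ± 0.73 (adjusted p = 0.0119). These 4 of 7 members compare with 11.6% of all tested genes that passed upward and 27.3% in either direction. BAMBI was at its highest level of all classes, with medians of 1203 RPM at E13 (405 to 1911) and 1314 RPM at E14 (673 to 2111). ID2 medians were 116 and 220 RPM. ID1 was low at 4.96 and 6.92 RPM, with a difference of -1.62 ± 0.67 (adjusted p = 0.0768), and ID3 differed by 0.09 ± 0.82, at 56.7 RPM on E13 and 276 RPM on E14. Within single days the ID3 difference was -0.42 at E13 and 2.72 at E14. BMP2 and BMP4 were both at 10 RPM or above in 15 of 16 cells at E13 and 6 of 14 cells at E14.

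Only 2 days entered on the mesenchyme side. The BMP4 call was lost without E13 (1.97, adjusted p = 0.150), in edgeR (2.04, adjusted p = 0.113) and in DESeq2 (2.04, adjusted p = 0.0755), and the ID2 call without E14 (3.09, adjusted p = 0.0754), on the log2 of the mean RPM (2.01, adjusted p = 0.0785), in edgeR (1.72, adjusted p = 0.154) and in DESeq2 (1.72, adjusted p = 0.153). The lowest adjusted p over the alternatives was 0.000246 for BMP4 and 1.06e-05 for ID2. Within E13, cells of the title codes MS10 and MS61 gave BMP2 differences of 7.18 and 8.11, BMP4 differences of 4.07 and 5.51 and ID2 differences of 3.92 and 4.46. The ID3 differences were -1.50 and -1.93. These codes held 4 mesenchyme-like cells each, with mean BMP2 of 7.64 and 8.31 and mean ID3 of 4.31 and 3.89. Another 8 carried MS13, with a mean BMP2 of 5.26, a mean ID3 of 6.28 and too few epiblast-like cells to compare. At E14, 12 mesenchyme-like cells carried MS09, which also lacked enough epiblast-like cells that day. The summed level of the hypoblast or endoderm markers in the mesenchyme-like cells was 2175 and 2870 RPM, against 33.9 to 253 RPM in late epiblast-like cells. Its part in the BMP2 level was not tested. BMP6, at a mean of 6.23 to 6.92 in hypoblast or endoderm-like cells, was 0 and 0.34 in the mesenchyme-like cells.

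Among the 14 mesenchyme-like cells of E14, BMP2 went with less ID1 and ID2: rho was -0.78 for BMP2 with ID1 and -0.84 for BMP2 with ID2, while ID1 and ID2 had a rho of 0.83. At E13 all 16 cells carried BMP2 at 10 RPM or above, and BMP2 and ID2 had a rho of -0.30. BMP4 and ID2 had a rho of 0.66 at E13 and of 0.04 at E14, so neither relation had a like size on both days. BMP2 and reads per cell had a rho of -0.13 at E14 and -0.19 at E13. With reads per cell, ID1 had a rho of 0.47 at E14, and ID2 of 0.35 at E14 and 0.39 at E13.

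Of the 34 other pathway genes, 11 were higher and 5 lower in the mesenchyme-like cells. Among secreted modulators, TWSG1, which binds chordin and BMPs, was higher by 5.64 ± 0.52 (adjusted p = 1.87e-08), with day means of 8.57 and 8.90 against 2.38 to 4.13. Among targets, 5 of 8 were higher and 0 lower, including HAND1 (7.89 ± 0.96), ZNF503 (4.09 ± 0.51), MSX1 (3.35 ± 0.65), TBX3 (2.85 ± 0.59) and HEY1 (2.47 ± 0.38). HAND1 is a marker used in naming another class. SMURF2 (3.56 ± 0.47), a ubiquitin ligase that acts on SMADs and receptors, and the inhibitory SMAD6 (2.08 ± 0.58) were higher, as was the receptor gene ACVRL1 (2.37 ± 0.44). The co-receptor genes RGMA and NEO1 had differences of -4.24 ± 0.44 and -2.89 ± 0.54. BMP5, a ligand that did not reach the filter because it was high in only 2 units, had means of 6.47 and 6.03 at E13 and E14 and at most 1.48 in all other units.

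**Figure D3:**
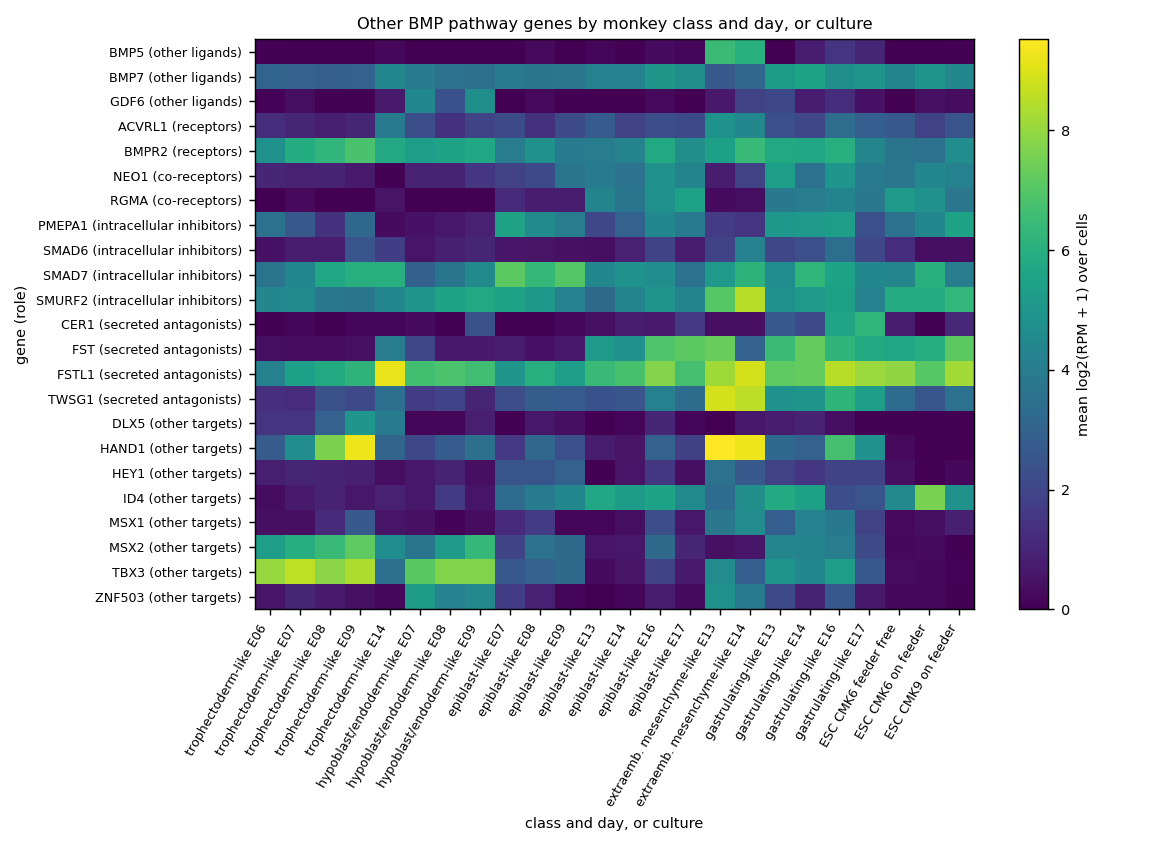
Mean log2(RPM + 1) over cells of other BMP pathway genes (rows, with their role) in each monkey class and day or culture (columns). TWSG1 and BMP5 stand out in mesenchyme-like cells, HAND1 in mesenchyme-like and E08 and E09 trophectoderm-like cells, TBX3 and MSX2 in trophectoderm-like and hypoblast or endoderm-like cells, and RGMA and FST are low in E07 to E09 epiblast-like cells.

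In gastrulating-like against late epiblast-like cells, BMP2 was the only 1 of the 7 members to pass. BMP2 was higher by 2.66 ± 0.70 (4 days against 4; limma, adjusted p = 0.0251), beside 2.78% of all tested genes that passed upward and 5.44% in either direction. Within single days the difference was 0.75 (E13), 1.4 (E14), 4.81 (E16) and 3.66 (E17), so the later days, which come from another cluster than the earlier ones, carried most of it. The summed hypoblast or endoderm markers of the gastrulating-like class were at 813, 569, 1715 and 1764 RPM on the same 4 days, against 33.9 to 253 RPM in late epiblast-like cells, and their part in the BMP2 difference was not tested. Within title codes the differences were 4.58 and 4.32 at E16 and 3.42 and 1.83 at E17, and -0.46 for the 1 code of E13 with enough cells. The call was lost without gastrulating-like E16 (1.76, adjusted p = 0.115) or E17 (2.30, adjusted p = 0.0833), without epiblast-like E13 (2.6, adjusted p = 0.0664) or E14 (2.52, adjusted p = 0.0859), with only the 2 classes in the fit (adjusted p = 0.165) and with no filter (adjusted p = 0.116). It stood in edgeR (5.04, adjusted p = 0.0111) and DESeq2 (5.04, adjusted p = 8.71e-05).

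For the ID genes the difference from the epiblast-like cells was not the same on each day, which was not tested. ID2 was higher by 3.34 at E13 and 3.77 at E14, and its differences at E16 and E17 were -0.04 and 0.45. The ID1 differences were -0.03, 1.64, -2.12 and -1.38 on the 4 days. Within title codes, ID1 differed by 1.38 at E13, -2.71 and -1.57 at E16, and -1.36 and -2.26 at E17. ID2 differed by 3.07 at E13, 0.27 and -0.20 at E16, and 0.80 and -1.71 at E17. At E14, 10 gastrulating-like cells carried MS13, which had too few epiblast-like cells that day to compare. At E14 the ID1 median was 45.7 RPM (7.53 to 181), and 11 of 12 cells were at 10 RPM or above for both ID1 and ID3. At E17 it was 6.16 RPM (0 to 65.5, 16 cells). Over the 4 days the differences were 1.88 ± 0.72 for ID2 (adjusted p = 0.148), 1.22 ± 0.67 for ID3 (adjusted p = 0.350), -0.47 ± 0.55 for ID1 and 1.07 ± 0.60 for BMP4 (adjusted p = 0.359). Without epiblast-like E16 the ID2 difference was 2.57 and its adjusted p 0.0334 in limma. On the log2 of the mean RPM the BMP4 difference was 2.37 and its adjusted p 0.0266. The E17 gastrulating-like cells were the shallowest of the class, with a median of 767930 reads.

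In single cells, BMP2 of the E17 gastrulating-like class went with a lower level of POU5F1, a pluripotency gene (rho = -0.82, 16 cells), and at E16 rho was -0.67 (10 cells). At E14, ID1 and ID2 had a rho of 0.87 and BAMBI and MSX2 of 0.85 (12 cells). The amnion marker TFAP2A had a rho of 0.64 with ID1, 0.74 with ID2, 0.70 with ID3 and 0.79 with BAMBI in these 12 cells. Its part in these levels was not tested. Of 34 other pathway genes, 7 were higher and 0 lower in the gastrulating-like class. TBX3 (3.45 ± 0.49), HAND1 (2.94 ± 0.79), MSX1 (2.35 ± 0.53) and MSX2 (2.33 ± 0.61) were higher among the targets, and the secreted antagonist genes CER1 (3.3 ± 0.64) and TWSG1 (2.24 ± 0.42) were higher too. The call was lost in 11 of 20 alternatives for MSX2 (adjusted p up to 0.258) and in 6 of 20 for HAND1 (up to 0.128). CER1 is a marker used to name the class. BMPER, a secreted BMP regulator, and CHRD, the gene of the antagonist chordin, were not tested, and had means of 4.33 (BMPER at E16), 3.45 (BMPER at E17) and 4.52 (CHRD at E17).

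Trophectoderm-like cells had ID2 and ID3 transcripts with almost no ID1. ID1 was at 10 RPM or above in 1 of 84 cells, and in 0 of 34 cells on E08, which allows a share of up to 8.82% (3 of 34 cells). Its median was 0, 0, 0, 0.89 and 0.47 RPM at E06, E07, E08, E09 and E14. ID2 had medians of 1.66, 3.19, 28.1, 77.3 and 13.2 RPM on those days, and the share of cells at 10 RPM or above was 25%, 36.8%, 88.2%, 100% and 55.6%. ID3 medians were 12.7, 20.5, 30.9, 89.2 and 389 RPM. The E14 cells came from another cluster than those of E06 to E09. That cluster had 6 of 9 trophectoderm markers and 4 of 9 mesenchyme markers raised, and their part in the ID levels was not tested. ID2 and ID3 were together at 10 RPM or above in 26 of 34 cells at E08, with a rho of 0.73 across the cells.

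Against epiblast-like cells of E07 to E09, ID2 was higher in trophectoderm-like cells by 2.63 ± 0.83 (3 days against 3; limma, adjusted p = 0.0261). It was the only member to pass, while 8.46% of all tested genes passed upward, 10.5% downward and 18.9% in either direction. ID3 was higher by 2.09 ± 0.77 (adjusted p = 0.0624), and ID1 differed by -1.67 ± 0.63 (adjusted p = 0.0693), with day means of 0.24 to 1.11 against 2.07 to 2.45. The ID1 difference passed in 4 of 18 alternatives, DESeq2 among them (-2.48, adjusted p = 0.0196), over a range of 0.00821 to 0.47. With the day as a block 4 of 7 members passed: ID2 (adjusted p = 0.046), ID3 (adjusted p = 0.0302), ID1 (adjusted p = 0.0113) and BAMBI (1.31, adjusted p = 0.0453). That setting called 2684 of all 11751 tested genes in either direction, against 2224 in the main fit. The ID2 call was lost without epiblast-like E07 (2.30, adjusted p = 0.105) or E09 (2.34, adjusted p = 0.103), without trophectoderm-like E08 (2.29, adjusted p = 0.12) or E09 (1.90, adjusted p = 0.181), with units of at least 10 cells (0.66, adjusted p = 0.922), with a pseudocount of 10 (1.47, adjusted p = 0.0572), with only the 2 classes (adjusted p = 0.0805) and with no filter (adjusted p = 0.103), and its adjusted p ranged from 0.00184 to 0.922 over the alternatives. BMP2, BMP4 and BMP6 had differences of -0.15 ± 0.81, -0.69 ± 0.69 and -0.27 ± 0.29.

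Of the 34 other pathway genes, 6 were higher and 6 lower in trophectoderm-like cells. The targets TBX3 (5.29 ± 0.56), HAND1 (4.83 ± 0.91), MSX2 (3.58 ± 0.70) and DLX5 (2.80 ± 0.53) and the type 2 receptor gene BMPR2 (2.06 ± 0.47) were higher. HAND1 is a marker of this class. ID4 (-3.11 ± 0.80) and PMEPA1 (-2.27 ± 0.70) were lower.

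At E06, the earliest day, ID1 was not detected at 1 RPM in any of 43 cells, which allows a share of up to 6.98% (3 of 43 cells). Of these cells 42 were at 0 and the highest was at 0.36 RPM. ID3 was at 1 RPM or above in 35 of the same 43 cells, BAMBI in 41, BMP4 in 21, ID2 in 16, BMP2 in 10 and BMP6 in 4. The 31 unnamed E06 cells had a summed epiblast marker level of 2735 RPM and no cell above 0.36 RPM for ID1, and counting them as epiblast-like gave a late against early ID2 difference of 2.25 (adjusted p = 0.0186) and an ID1 difference of ESC against early epiblast-like cells of 1.76 (adjusted p = 0.0429).

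**Figure D4:**
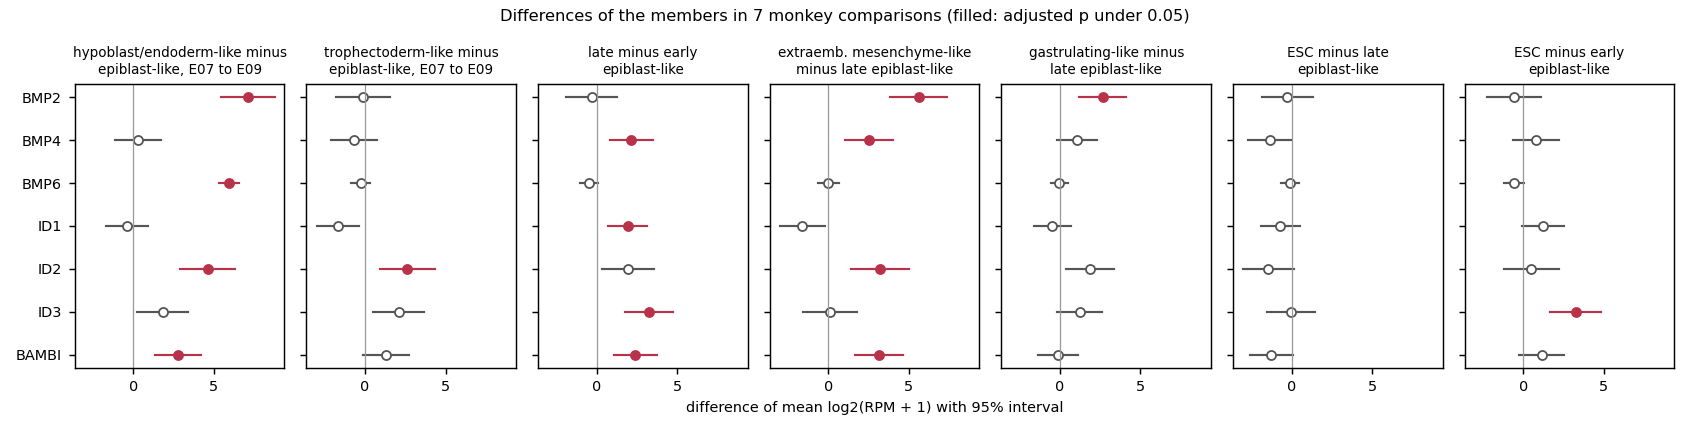
Difference in mean log2(RPM + 1) with its 95% interval for the 7 members (rows) in 7 monkey comparisons (panels). Filled points mark an adjusted p under 0.05 in limma: BMP2 and BMP6 are farthest to the right in the hypoblast or endoderm-like panel, and 0 members are filled in the panel of ESC against late epiblast-like cells. BMP6 passed the filter on low values only through the hypoblast or endoderm-like units, so its point there had to differ.

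Across the 24 named units and cultures, the 3 ID genes had different orders. ID1 was highest in epiblast-like cells at E16 (5.52 ± 1.10, SD over cells) and gastrulating-like cells at E14 (5.46 ± 1.26), which differed by less than either SD. ID2 was highest in mesenchyme-like cells at E14 (7.38 ± 1.62), gastrulating-like cells at E14 (7.15 ± 2.61) and hypoblast or endoderm-like cells at E09 (7.13 ± 2.21), again within the SD. ID3 was highest in gastrulating-like cells at E14 (8.74 ± 1.59) and E16 (8.71 ± 0.83). Pearson's r across the 24 units was 0.19 for ID1 with ID2, 0.56 for ID1 with ID3 and 0.52 for ID2 with ID3, and across the cells within a unit Spearman's rho differed from unit to unit. In 37 hypoblast or endoderm-like cells of E08 rho was 0.66 for ID1 with ID2 and 0.71 for ID1 with ID3, and ID1 also had a rho of 0.42 with reads per cell. In the epiblast-like cells of E13 the same pairs had 0.11 and 0.09, and in the gastrulating-like cells of E17 0.05 and 0.15. With the ligands, ID2 had an r of 0.71 with BMP2 and ID1 an r of -0.06, while BMP4 had an r of 0.54 with ID1, 0.50 with ID2 and 0.59 with ID3. Units share classes and days, and these correlations are descriptions.

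The genes most like each member over the 24 units were listed by Pearson's r, as a description. For BMP2 they were PDGFRA (0.97), RSPO3 (0.93) and ARHGAP42 (0.92), for BMP6 KCNJ13 (0.99) and HAP1 (0.97), and for BMP4 GAS1 (0.88), LEF1 (0.88) and HMGA2 (0.87). PDGFRA, a growth factor receptor, is among the hypoblast or endoderm markers. For ID1 they were PATZ1 (0.90), COL26A1 (0.88) and ORAI3 (0.87). For ID2 they were the collagen genes COL4A1 (0.80) and COL4A2 (0.79) with PCP4L1 (0.79), for ID3 PRKCH, FAR1 and ASAP3 (0.82, 0.82 and 0.81), and for BAMBI RABAC1 (0.83), LAMA2 (0.83) and RECK (0.79).

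Monkey ESC had ID1, ID2, ID3 and BAMBI transcripts and few ligand transcripts. At 10 RPM or above were 15 of 31 cells for ID1, 16 for ID2, 29 for ID3 and 27 for BAMBI. BMP2 had a median of 0 RPM in all 3 cultures, with 1 of 31 cells at 10 RPM or above, and BMP6 was at 0 in 30 of 31 cells. BMP4 medians were 2.3 RPM in CMK6 without feeders, 0.48 RPM in CMK6 on feeders and 2.02 RPM in CMK9 on feeders. ID1 was even across the cultures at 8.14, 11.4 and 8.63 RPM, ID3 was at 217, 40.3 and 179 RPM, and ID2 at 13, 0.46 and 13.9 RPM. The 2 cultures of line CMK6 thus lay farther apart in ID2 and ID3 than CMK6 without feeders and CMK9 on feeders, with cells of all cultures overlapping and no test of this difference. Markers of feeder fibroblasts summed to 501 RPM without feeders and to 1139 and 1309 RPM on feeders, and their part in these levels was not tested.

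Against early epiblast-like cells, ID3 was higher in ESC by 3.25 ± 0.77 (3 cultures against 3 days; limma, adjusted p = 0.00256), the only member to pass beside 16.9% of all tested genes upward and 30.1% in either direction. With units of at least 10 cells the difference was 1.27 (adjusted p = 0.685). ID1 was higher by 1.2 ± 0.63 (adjusted p = 0.159). The ESC carried the title codes MS05 and MS11, and the early epiblast-like cells mainly MS02 and MS03. Culture and code can therefore not be told apart in this comparison. Against late epiblast-like cells 0 of 7 members passed in limma or edgeR, beside 8.30% of all tested genes in limma (6.81% upward and 1.49% downward). Of all 11751 tested genes, edgeR called 355 and DESeq2 786. At an unadjusted p under 0.05 there was 1 member in limma (BMP4) and there were 3 in each of edgeR and DESeq2 (BAMBI, BMP4 and ID2), and DESeq2 called 1 (ID2, -2.55, adjusted p = 0.0276, over a range of 0.0276 to 0.586). The differences were -0.02 for ID3 (95% interval -1.51 to 1.48), -0.71 for ID1 (-1.94 to 0.51), -1.37 for BMP4 (-2.70 to -0.04), -1.45 for ID2 (-3.05 to 0.15) and -1.27 for BAMBI (-2.60 to 0.06), so sizeable differences in either direction remain possible for ID3.

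Of the 34 other pathway genes, 6 were higher and 5 lower in ESC than in early epiblast-like cells, among them FST (5.62 ± 0.76), RGMA (3.70 ± 0.42) and FSTL1 (2.34 ± 0.38) as higher and TBX3 (-2.78 ± 0.56), MSX2 (-2.77 ± 0.70), HEY1 (-2.46 ± 0.36) and SMAD7 (-2.01 ± 0.55) as lower. This comparison and that of late with early epiblast-like cells share the early epiblast-like units. Against late epiblast-like cells 1 of the 34 was higher and 0 were lower.

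In mouse, Bmp2 was also found in endoderm. Visceral endoderm-like cells had a median of 13.4 RPM at E5.5 (0.38 to 185, 9 cells) and 122 RPM at E6.5 (7.48 to 381, 5 cells), and all 9 mouse cells at 10 RPM or above were of this class. The 16 epiblast-like cells of E5.5 had a median of 0 RPM and a highest value of 0.29 RPM. For Bmp6, 0 mouse cells of any class or culture were at 10 RPM or above, so its detection in mouse cannot be judged here. Bmp6 was at 0 in all 14 visceral endoderm-like cells, unlike in the monkey class, which is of other days. With the limit for a count of 0 set at 3 cells, this allows a share of up to 33.3% at E5.5 (3 of 9 cells) and 60% at E6.5 (3 of 5 cells). No test compared the species.

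Mouse Id1 was highest in the visceral endoderm-like cells of E5.5, at a median of 115 RPM (21.4 to 190), and all 9 cells were above 10 RPM. Mesoderm-like cells of E6.5 had a median of 25.3 RPM (0 to 162, 10 cells), visceral endoderm-like cells of E6.5 2.85 RPM (0.68 to 100) and epiblast-like cells of E5.5 2.44 RPM (0 to 293). The 9 unnamed cells of E6.5, led by the immunoglobulin genes Igkc and Ighm, were at 0.54 RPM (0 to 3.73) for Id1 and at 179 RPM for Id3. Within E5.5, visceral endoderm-like minus epiblast-like cells gave 3.96 for Id1, 1.38 for Id2, 0.17 for Id3 and -0.33 for Bambi on the log2(RPM + 1) scale. Over the 2 visceral endoderm-like days against the 1 epiblast-like day, 0 of the 5 tested members passed in limma, edgeR or DESeq2, and 0 had an unadjusted p under 0.05, beside 0.837% of 9079 genes (0.529% upward and 0.308% downward). The epiblast-like side is 1 unit and the spread in this fit comes from the 2 visceral endoderm-like days, which differ in age, so it says little on whether members differ. Id1 differed by 2.26 ± 1.59 (adjusted p = 0.760). Counting the unnamed E6.5 cells as epiblast-like, with the day as a block, gave 3.13 (adjusted p = 0.0184), and over the alternatives the adjusted p of Id1 ranged from 0.0184 to 0.935. Bmp2 and Bmp6 did not reach the filter.

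Mouse Bmp4 was low in all classes, with medians of 6.17 RPM in epiblast-like cells and 8.07 RPM in visceral endoderm-like cells at E5.5, and 0.90 RPM in mesoderm-like cells, of which single cells reached 73.7 RPM. Of 20 other pathway genes tested in mouse, 0 passed. Nog, the antagonist noggin, was not tested and had a mean log2(RPM + 1) of 4.75 in visceral endoderm-like cells at E5.5 and 0.68 at E6.5. Cer1 had 2.50 and 8.86 on those days.

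**Figure D5:**
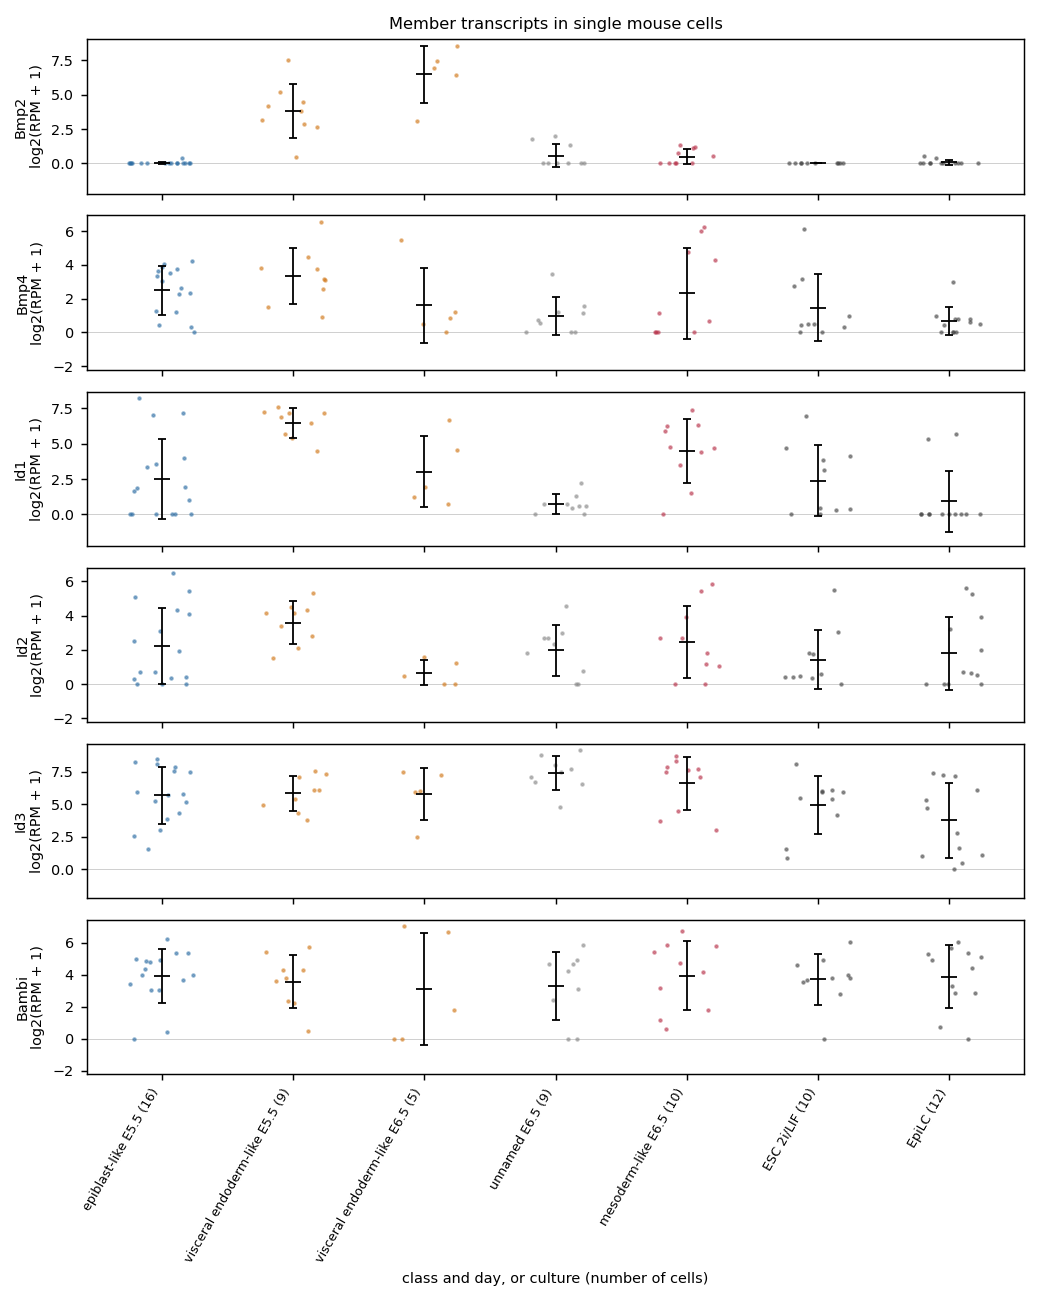
Log2(RPM + 1) of 6 members in each mouse cell (points), by class and day or culture, with the mean and SD over cells (black). Bmp2 is high in visceral endoderm-like cells and near 0 in the other groups, and Id1 is above 4 in all 9 visceral endoderm-like cells of E5.5.

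EpiLC and ESC of the mouse were 1 culture each and were not tested. The mean log2(RPM + 1) was 0.92 ± 2.14 in EpiLC (12 cells, SD over cells) and 2.39 ± 2.47 in ESC (10 cells) for Id1, 3.76 ± 2.87 and 4.96 ± 2.21 for Id3, 1.81 ± 2.13 and 1.43 ± 1.71 for Id2, and 3.88 ± 1.96 and 3.71 ± 1.58 for Bambi. Bmp4 was 0.66 ± 0.82 and 1.48 ± 1.98, a difference of -0.82 that was -2.3 on the log2 of the mean RPM. For these genes, the differences in mean log2(RPM + 1) were smaller than the SD over cells of either culture. For Bmp4 the difference of -0.82 was about the size of the EpiLC SD. Id1 was at 0 in 10 of 12 EpiLC and 2 of 10 ESC. Bmp2 was at 0 in all ESC and at most 0.42 RPM in EpiLC.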

How the data were processed

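Each sample was 1 hand-isolated cell whose amplified cDNA was sequenced from transcript 3′ ends. The authors deposited 1 table per species with RPM (reads scaled to the library's total) per gene and cell. Per the file headers the builds were macFas5 and mm10. cutadapt 1.3, TopHat 1.4.1 and Cufflinks 2.2.0 are listed in the submitters' processing notes. Of the monkey rows, 298 without a gene name were left out, as were 37 mouse columns that match no sample.

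Embryo cells were clustered in scanpy 1.11.5 on 2000 variable genes without the 65 BMP pathway genes, and clusters were called "-like" from marker lists. Means of log2(RPM + 1) per class and day, over at least 5 cells, or per culture were compared in 1 limma 3.58.1 fit (24 monkey units, genes at a mean of 2 in at least 3 units) with Benjamini-Hochberg adjustment over all tested genes and a threshold of 0.05. In mouse 6 units were fitted, with 1 epiblast-like unit where a pair of days had been planned. Same-day units of the classes compared deviated together: r was 0.11 to 0.26 for hypoblast or endoderm-like with epiblast-like cells, 0.10 to 0.24 for trophectoderm-like, 0.29 to 0.39 for gastrulating-like and 0.28 and 0.04 for mesenchyme-like cells, so the day shared by the labels was used as a block in an alternative. RPM steps gave whole reads within 0.1 read for at least 99.6% of the values checked in each cell, and edgeR 4.0.16 and DESeq2 1.42.0 were run on those reads as alternatives. A stricter check accepted the whole reads in only 7 monkey columns. Pathway genes are named where they passed with a difference of at least 2. Some genes that met the rules for naming are not reported here, though they are among those counted. Members, lists and comparisons were chosen with earlier results of these data known.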

Additional observations from a re-analysis of the deposited data

How the results depend on the processing

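Of 253 alternative values of the 14 member differences that passed, leaving out BMP6 in hypoblast or endoderm-like cells, 219 kept direction and call, 34 kept direction but lost the call and 0 reversed. Of 779 values for the 43 named pathway differences, 702 held, 77 lost the call and 0 reversed. Both counts include a finer clustering (Leiden resolution 1.5), which returned the same classes and so had to keep every call. With the day as replicate block, the counts of genes called stayed within 1.5 times in the 4 monkey comparisons where it could be fitted, and the block changed no member call other than those given for ID3, ID1 and BAMBI. With units of at least 10 cells, the genes called numbered 613 (of 2371) for hypoblast or endoderm-like, 658 (of 2224) for trophectoderm-like, 1077 (of 3841) for late against early epiblast-like, 80 (of 975) for ESC against late and 704 (of 3539) for ESC against early epiblast-like cells. Leaving out 1 unit gave 1879 to 2944 (of 3210) for mesenchyme-like cells, lowest without E14, 350 to 880 (of 639) for gastrulating-like cells (350 without epiblast-like E14, 373 without gastrulating-like E16 and 416 without epiblast-like E13), and 423 to 902 for ESC against late epiblast-like cells (423 without CMK9 on feeders, 581 without E14 and 584 without CMK6 on feeders). Gastrulating-like cells gave 203 with only the 2 classes and 986 in DESeq2. ESC against late epiblast-like cells gave 566 on the log2 of the mean RPM, 644 after quantile normalization and 355 in edgeR. The mouse comparison (76) gave 0 with a pseudocount of 10, with no filter and in edgeR, 4 on the log2 of the mean RPM, 420 after quantile normalization, 588 in DESeq2, 134 with the unnamed E6.5 cells as epiblast-like and 1134 with the day as replicate block as well. The causes were not tested. Leaving out a mouse unit left no residual degrees of freedom, and units of 10 cells could not be fitted there.

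At 30 RPM in place of 10, shares of cells were 45.5% for BMP4 and 72.7% for ID1 in E16 epiblast-like cells, 0%, 25% and 33.3% for ID1, ID2 and ID3 in E08 epiblast-like cells, and 47.1% and 52.9% for ID2 and ID3 in E08 trophectoderm-like cells. Alternatives on the unnamed clusters, title codes and thinned reads were chosen after seeing the data. Depth limits statements on absence in the shallow E13 and E17 cells.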
